A study of Homo sapiens with 6 samples.

Results

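The genes of cholesterol and fatty acid synthesis were followed in A2780 cells, an ovarian carcinoma line, WT and CDK12 KO. The group holds 36 of the 60483 genes listed, chosen by name from the textbook pathways with earlier results of these data known. It has 18 cholesterol synthesis enzymes, 6 SREBP regulators and sterol carriers, and 12 genes that make, elongate or desaturate fatty acids. All 36 passed the filter on low counts, as did 16198 genes in all. RNA was sequenced from 3 libraries of A2780 WT cells and 3 libraries of A2780 CDK12 KO cells. The KO cells are 1 clone, obtained with CRISPR/Cas9 directed against exon 1 of CDK12, a kinase of RNA polymerase II. Both were grown in RPMI medium with fetal bovine serum and glutamine, and the labels give no treatment. What differs between a clone and its parental population, CDK12 or otherwise, cannot be told apart in this design, and nothing says that libraries of a group came from separate cultures. The p-values therefore measure the spread between these libraries, which may be technical.

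Cholesterol is built from acetyl-CoA, first through mevalonate to farnesyl diphosphate and then through squalene and lanosterol to the sterol ring system. The same cytosolic acetyl-CoA feeds fatty acid synthesis, whose main product, palmitate, is elongated and desaturated in the endoplasmic reticulum. Most of these enzymes are transcribed under SREBP factors, which SCAP escorts out of the endoplasmic reticulum when sterols are low and INSIG proteins hold back when sterols are high.

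Total counts ranged from 11098400 to 30899045 per library, so that 3 counts correspond to at most 0.270 CPM (counts per 1000000 of the library's TMM-adjusted sum), a floor that covers counting error only. CDK12 itself had 2831, 3759 and 1294 counts in WT and 2432, 2504 and 1818 counts in KO. Scaled to depth it fell from 115 ± 11.1 to 98.0 ± 4.64 CPM (SD, n = 3), a log2 fold change of -0.23 (edgeR adjusted p = 0.00082), with no overlap. An edit within an exon does not remove reads, so these counts do not check the label. Of the epithelial markers, KRT18 was at 58.1 to 62.0 CPM in WT and 101 to 106 CPM in KO, and KRT8 at 7.11 to 7.63 and 10.6 to 11.5 CPM. EPCAM went the other way, from 2.34 to 3.90 CPM in WT to 2.12 to 2.20 CPM in KO (log2 fold change -0.53, adjusted p = 0.0119), while PAX8 had at most 6 counts and MUC16 at most 1 count in any library. Markers of other cell types were near 0 in sum: blood 0.234 to 0.540 CPM in WT and 0.610 to 1.00 in KO, endothelial at most 0.112 CPM, fibroblast 1.34 to 1.42 CPM in WT and 0 in KO. The adipocyte markers summed to 0.467 to 1.02 CPM in WT and 1.18 to 1.69 in KO, with ADIPOQ at 0 in every library, and the hepatocyte markers to 0.868 to 1.35 and 1.99 to 2.19. The part of these differences in the results was not tested. The authors report a higher DNA content and chromosome number in the KO clone than in WT. CPM are shares of a library, so lower and higher here do not give transcript per cell. In bulk RNA, fewer cells with a transcript and less of it per cell cannot be told apart.

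Most cholesterol synthesis enzymes fell modestly in the KO clone. The fatty acid genes were called in both directions, at shares not far from those of all tested genes. At an adjusted p under 0.05, 20 of the 36 genes were lower in KO, 7 were higher and 9 were not called, against 32.0% lower and 31.9% higher over all tested genes. Calls this frequent over the whole transcriptome are the background for every count here. None of the 36 passed both the adjusted p and a log2 fold change beyond 1 or -1, which 8.30% of all genes did upward and 7.73% downward, and the 36 ranged from -0.78 to 0.58. The count past both thresholds was also 0 with voom/limma and DESeq2. By unadjusted p under 0.05 from edgeR, 27 of the 36 passed, beside 10798 of all 16198 genes. The same 27 had WT and KO libraries that did not overlap, 20 below and 7 above, where over all genes 33.5% lay below and 32.8% above without overlap. The median log2 fold change of the 36 was -0.16, beside 0.00044 over all tested genes.

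Counts and summed levels were taken for the enzymes of each pathway. Of the 18 cholesterol synthesis enzymes 12 fell (66.7%), 2 rose and 4 were not called, with a median log2 fold change of -0.32. Their summed level was 2170, 2079 and 2112 CPM in the WT libraries and 1702, 1759 and 1657 CPM in the KO libraries, 80.5% of WT, with no overlap. Beside 32.0% lower and 31.9% higher over all tested genes, 5 of the 12 fatty acid genes fell (41.7%) and 4 rose (33.3%). The other 3 were not called, and the median was -0.04. The sum of the 12 was 4235, 4439.8 and 4295 CPM in WT and 4422, 4348 and 4330.1 CPM in KO. That is 101% of WT, and the groups overlapped. SCD and FASN made up most of it: SCD averaged 1598 CPM in WT and 1869 in KO, and FASN 1203 and 1175. The sum therefore says little of the other genes.

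**Figure D1:**
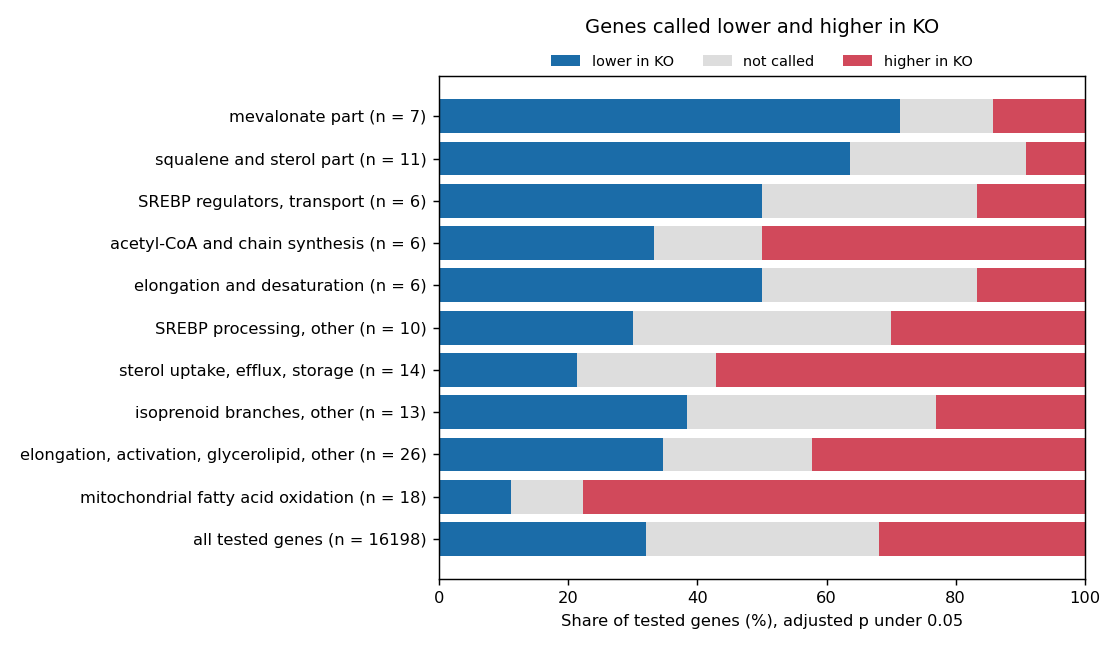
Share of tested genes (%) that were lower in KO, not called or higher in KO at an adjusted p under 0.05, as stacked bars for the 5 groups of the 36 genes, for 5 further lists described after them and for all tested genes. Lower calls were the largest class in the mevalonate group (5 of 7), the squalene and sterol group (7 of 11) and the regulators (3 of 6). They were also the largest class in elongation and desaturation (3 of 6), counting SCD5, whose call was kept in 3 of 12 alternative settings. Higher calls were the largest class in acetyl-CoA supply and chain synthesis (3 of 6).

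The mevalonate part had the lowest median of the 5 groups. Of its 7 genes 5 were lower in KO, PMVK was higher and MVK was not called, and the median log2 fold change was -0.43. Their summed level in KO was 74.9% of WT, at 821 to 879 CPM against 1102 to 1172 CPM, with no overlap.

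MVD, the decarboxylase that makes isopentenyl diphosphate, was at 53.5, 47.8 and 52.9 CPM in WT and at 33.6, 38.5 and 32.1 CPM in KO. FDPS, the synthase of farnesyl diphosphate, was at 479, 433 and 453 CPM in WT and at 311, 327 and 304 CPM in KO. IDI1, which isomerizes isopentenyl diphosphate, was at 170, 160 and 165 CPM in WT and at 121, 121 and 114 CPM in KO. In each of these genes the KO libraries were all lower than the WT libraries. The log2 fold changes were -0.55 ± 0.07 (SE, n = 3 libraries per group) for MVD, -0.53 ± 0.05 for FDPS and -0.48 ± 0.05 for IDI1, with edgeR adjusted p of 9.33e-09, 2.78e-11 and 3.55e-10. MVD spans 88651935 to 88663161 on the minus strand of chromosome 16, FDPS 155308748 to 155320666 on the plus strand of chromosome 1, and IDI1 1039152 to 1049119 on the minus strand of chromosome 10 (GRCh38).

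The first enzymes of the route fell as well. ACAT2, the cytosolic thiolase that joins acetyl-CoA units, had a log2 fold change of -0.43, and HMGCS1, the HMG-CoA synthase, of -0.35, with KO at 74.2% and 78.7% of the WT mean. ACAT2 shares 454 exonic bases with TCP1 on the opposite strand, a chaperonin subunit with 238% of its counts and a log2 fold change of -0.35. PMVK, the phosphomevalonate kinase, went the other way: it was at 52.2, 49.4 and 51.3 CPM in WT and at 62.3, 66.0 and 58.7 CPM in KO, a log2 fold change of 0.29 ± 0.06 (adjusted p = 3.22e-05). MVK, the mevalonate kinase of the step before, overlapped between the groups, with a log2 fold change of -0.07 (95% interval -0.22 to 0.08).

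Sequence upstream of the genes named here is given from RefSeq (GRCh38.p14), since SREBP factors act at such sites with partner factors that bind CCAAT and GC boxes. A window is read on the gene's strand, 5′ to 3′, within the 250 bases before the annotated start, cut to at most 160 bases that touch no annotated exon; for SREBF2 only the element with its flanks is shown, 30 bases. Capitals mark a CCAAT box, read as CCAAT or on the other strand as ATTGG, and in SREBF2 the sterol regulatory element TCACNCCAC. The first 5 belong to the genes with the largest decreases.
FADS1, chr11:61817198-61817253, minus strand: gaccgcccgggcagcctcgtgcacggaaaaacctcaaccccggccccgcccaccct
FDPS, chr1:155308616-155308747, plus strand: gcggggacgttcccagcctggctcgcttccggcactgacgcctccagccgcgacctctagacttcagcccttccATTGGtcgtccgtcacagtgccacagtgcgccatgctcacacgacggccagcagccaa
IDI1, chr10:1049185-1049344, minus strand: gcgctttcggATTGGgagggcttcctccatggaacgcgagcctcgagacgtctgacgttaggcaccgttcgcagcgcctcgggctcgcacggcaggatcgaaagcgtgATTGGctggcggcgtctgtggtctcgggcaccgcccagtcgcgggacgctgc
LSS, chr21:46228835-46228994, minus strand: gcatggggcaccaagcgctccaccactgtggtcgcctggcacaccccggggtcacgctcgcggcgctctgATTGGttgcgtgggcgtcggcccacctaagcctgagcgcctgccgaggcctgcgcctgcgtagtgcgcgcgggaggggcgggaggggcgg
MVD, chr16:88663162-88663297, minus strand: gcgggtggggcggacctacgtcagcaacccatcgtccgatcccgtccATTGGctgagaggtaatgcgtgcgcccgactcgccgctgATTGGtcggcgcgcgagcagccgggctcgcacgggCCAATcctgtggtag
SREBF2, chr22:41832962-41832991, plus strand: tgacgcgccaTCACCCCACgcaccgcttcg
MVD holds 3 CCAAT boxes in its window, IDI1 holds 2 and FDPS and LSS 1 each, and the FADS1 window holds neither motif. The FADS1 window lies inside the annotated gene span, between exons, because a longer transcript begins upstream.

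Of the 32 genes with a promoter in the table, 23 (71.9%) held CCAAT on either strand in the 250 bases before a start, beside 41.0% of 11165 tested genes. Among these 23 were 16 of the 18 lower genes and 7 of the 14 others. For the other motifs the same split was 16 of 18 and 14 of 14 for GGGCGG and 2 of 18 and 2 of 14 for CACGTG. For TCACNCCAC it was 0 of 18 and 1 of 14. No such split was made over all tested genes, so a link between a motif and the calls was not tested. Genes can have several promoters, and counted per promoter the shares were 61.4% of 44 and 32.6% of 16142. GGGCGG, the GC box, was in 30 genes (93.8%), beside 74.1% of the tested genes. CACGTG, the E-box, was in 4 genes (12.5%), beside 11.2%. TCACNCCAC was in 1 gene, SREBF2, beside 1.14% of the tested genes. Only exact matches to these letters were counted, so sterol elements with other letters were missed. ACAT2, FDFT1, SQLE and FASN had no promoter to search. Both strands were searched for each motif. No motif holds the letters of another, though CCAAT and its reverse can overlap, as they do in an IDI1 promoter. These matches describe the letters of the windows and say nothing of binding.

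The squalene and sterol part had a median closer to 0. Of its 11 genes 7 were lower, CYP51A1 was higher, and FDFT1, TM7SF2 and SC5D were not called, with a median log2 fold change of -0.17. The summed level in KO was 86.9% of WT, 837 to 880.1 CPM against 977 to 998 CPM, without overlap.

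LSS, the cyclase that turns the squalene epoxide into lanosterol, fell most in this group. It was at 93.2, 91.4 and 91.8 CPM in WT and at 56.8, 62.9 and 58.0 CPM in KO, so the KO libraries lay well below the WT libraries. The log2 fold change was -0.64 ± 0.05 (adjusted p = 2.89e-12). LSS lies at 46188141 to 46228824 on the minus strand of chromosome 21.

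SQLE, the squalene epoxidase and a rate-limiting enzyme of the pathway, changed little by comparison. It was at 126, 128 and 127 CPM in WT and at 117, 112 and 108 CPM in KO. The groups did not overlap, and the log2 fold change was -0.17 ± 0.05 (adjusted p = 0.00257). FDFT1, the squalene synthase one step earlier, had overlapping groups and a log2 fold change of -0.08 (95% interval -0.17 to 0.02).

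CYP51A1, the lanosterol demethylase, was the single enzyme of the sterol part that rose. It was at 13.2, 14.5 and 15.9 CPM in WT and at 21.7, 21.8 and 20.7 CPM in KO, a log2 fold change of 0.58 ± 0.08 (adjusted p = 1.06e-07). The annotation shares 108 of its exonic bases with AKAP9 on the opposite strand, whose counts were 1721% of those of CYP51A1 and which rose by 0.32 on the log2 scale. Its annotated pseudogenes held counts equal to 6.54% of its own. The strand setting of the counting is not given in the sources used here, so the value of CYP51A1 is uncertain.

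The later sterol enzymes that fell were NSDHL and HSD17B7, which work in the removal of methyl groups, MSMO1, the methylsterol oxidase, EBP, the sterol isomerase, and DHCR7, a late sterol reductase. Their log2 fold changes were -0.42, -0.35, -0.15, -0.28 and -0.36, and the KO mean was between 75.0% and 90.3% of the WT mean. TM7SF2, a sterol reductase, had a log2 fold change of -0.12 (95% interval -0.32 to 0.08), and SC5D, a sterol desaturase, of -0.08 (95% interval -0.19 to 0.02). In both the groups overlapped, and the intervals still allow changes of the size seen in MSMO1.

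**Figure D2:**
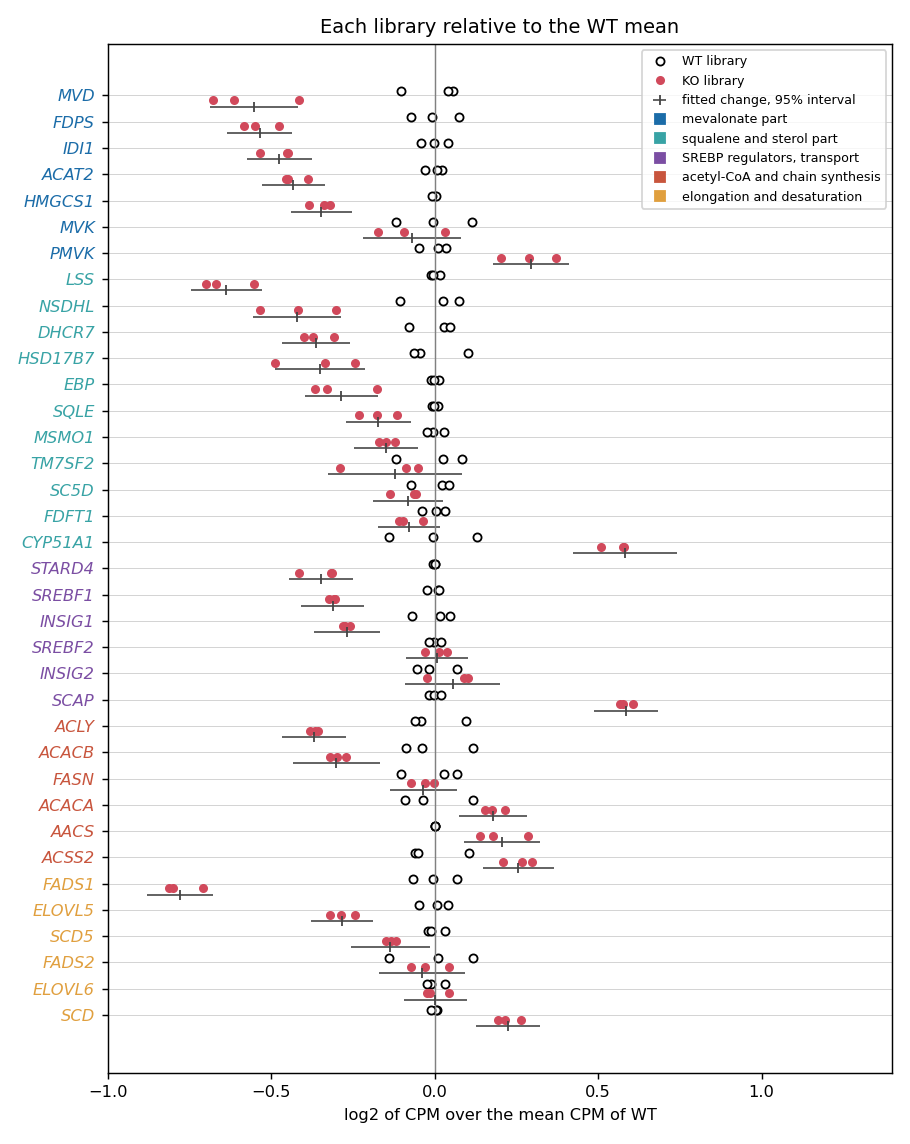
log2 of the CPM in each library over the mean CPM of WT, for each of the 36 genes coloured by role, with open points for WT libraries, filled points for KO libraries and a bar for the fitted log2 fold change with its 95% interval. FADS1, LSS and MVD have the KO points farthest below 0, and SCAP and CYP51A1 the KO points farthest above it.

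Of the 6 regulators and carriers, 3 fell, SCAP rose, and SREBF2 and INSIG2 were not called, with a median log2 fold change of -0.13. The shares over all tested genes were 32.0% lower and 31.9% higher. SREBF2, which encodes the SREBP most tied to cholesterol genes, was at 177, 179 and 175 CPM in WT and at 179, 174 and 182 CPM in KO. The groups overlapped, and the log2 fold change was 0.01 (95% interval -0.09 to 0.10), an interval that leaves out the values of the 5 mevalonate genes that fell.

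SREBF1, which encodes the SREBP most tied to fatty acid genes, was at 159, 159 and 155 CPM in WT and at 128, 128 and 126 CPM in KO. Every KO library lay below WT, with a log2 fold change of -0.31 ± 0.05 (adjusted p = 7.02e-07). It shares 556 exonic bases with RAI1 on the opposite strand, which had 58.5% as many counts and fell by 0.39 on the log2 scale, so the counts of the pair may not be separate.

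SCAP had the largest increase of the 36 genes, next to that of CYP51A1. It was at 86.9, 87.8 and 89.1 CPM in WT and at 131, 130 and 134 CPM in KO, 150% of the WT mean, with a log2 fold change of 0.58 ± 0.05 (adjusted p = 2.52e-12). INSIG1, an SREBP target that retains SCAP, was at 123, 114 and 121 CPM in WT and at 99.8, 98.7 and 98.3 CPM in KO. The escort and its retention factor moved in opposite directions, with INSIG1 at a log2 fold change of -0.27 ± 0.05 (adjusted p = 1.85e-05). INSIG2, its paralog, was at 21.8, 20.0 and 20.5 CPM in WT and at 20.5, 22.3 and 22.1 CPM in KO, which overlap (log2 fold change 0.05, 95% interval -0.09 to 0.20). STARD4, a cytosolic sterol carrier, fell by 0.35 on the log2 scale.

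The genes of acetyl-CoA supply and chain synthesis moved in both directions. Of 6 genes 3 rose, 2 fell and FASN was not called, the median log2 fold change was 0.07 (0.019 without WT replicate 1), and the summed level in KO was 95.7% of WT with overlapping libraries. The suppliers of cytosolic acetyl-CoA moved apart. ACLY, which makes it from citrate, was at 428, 471 and 423 CPM in WT and at 338, 342 and 344 CPM in KO, a log2 fold change of -0.37. ACSS2, which makes it from acetate, was at 84.7, 75.5 and 76.1 CPM in WT and at 94.9, 96.8 and 91.0 CPM in KO, a log2 fold change of 0.26 ± 0.05 (adjusted p = 0.000105). In both genes the groups were separate, and per length ACLY was the fourth of the 36 in WT, at 84.6 CPM per kb of exon, well above ACSS2. AACS, which activates acetoacetate, rose by 0.21 on the log2 scale.

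The acetyl-CoA carboxylases also moved apart. ACACA, the cytosolic form, was at 190, 220 and 198 CPM in WT and at 226, 229 and 235 CPM in KO, a log2 fold change of 0.18 ± 0.05 (adjusted p = 0.00285). Its groups did not overlap, though WT replicate 2 came close to KO replicate 1. ACACB, the mitochondrial form, fell with a log2 fold change of -0.30 and was the lowest of the 36 genes per length, at 2.47 CPM per kb in WT. FASN, the fatty acid synthase, was at 1120, 1262 and 1228 CPM in WT and at 1179, 1201 and 1144 CPM in KO. These overlap, with a log2 fold change of -0.03 (95% interval -0.14 to 0.07).

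Of the 6 desaturases and elongases 3 fell, FADS1, ELOVL5 and SCD5, while SCD rose and FADS2 and ELOVL6 were not called, with a median log2 fold change of -0.09. SCD, the stearoyl-CoA desaturase that makes oleate, was at 1607, 1603 and 1586 CPM in WT and at 1920, 1830.4 and 1857 CPM in KO. All KO libraries were higher, with a log2 fold change of 0.23 ± 0.05 (adjusted p = 0.000132). The summed level of the 6 genes was 105.6% of WT. SCD alone held 1598 of 2319 CPM in WT and 1869 of 2448 CPM in KO. SCD5, its paralog, fell by 0.13 on the log2 scale (adjusted p = 0.0467), a call that was lost in 9 of 12 alternative settings.

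FADS1, the desaturase that makes arachidonic acid, fell most of all 36 genes. It was at 207, 218 and 198 CPM in WT and at 119, 118 and 127 CPM in KO, 58.5% of the WT mean, and the groups lay far apart. The log2 fold change was -0.78 ± 0.05 (95% interval -0.88 to -0.68, adjusted p = 4.26e-15). ELOVL5, which elongates the same chains, fell by 0.28. FADS2, the desaturase of the step before, was at 38.9, 41.9 and 35.0 CPM in WT and at 36.7, 37.8 and 39.8 CPM in KO, which overlap (log2 fold change -0.04, 95% interval -0.17 to 0.09). FADS1 spans 61799627 to 61829318 on the minus strand of chromosome 11 and FADS2 61792980 to 61867354 on the plus strand, and they share 490 exonic bases. ELOVL6, which elongates palmitate, had a log2 fold change of 0.00 (95% interval -0.09 to 0.10).

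Each gene was also set beside the 5 nearest tested protein-coding genes on either side. Of the 36 genes 23 (63.9%) lay below the median log2 fold change of their neighbours, beside 49.9% of the 12744 tested protein-coding genes. For the 20 lower genes the neighbours' medians ran from -0.31 to 0.48, with a median of 0.09. Below their neighbours lay 19 of the 20 genes called lower and 0 of the 7 called higher. That largely follows from the calls, and so does the share of 63.9%, which is no separate result. The neighbours of MVD, FDPS, IDI1 and FADS1 had medians of 0.18, 0.06, 0.08 and 0.14, and those of LSS and SREBF1 had -0.24 and -0.23. The neighbours' median was 0.19 for SCAP and 0.32 for CYP51A1.

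Other genes of sterol and fatty acid handling were read from 5 further lists. Over all tested genes 31.9% were higher and 32.0% lower, the background for each count on these lists. Of 10 other genes of SREBP processing and sterol sensing, 3 rose and 3 fell (30% each) and 4 were not called, near that background. The median log2 fold change was 0.00. RNF145, a sterol-responsive ubiquitin ligase, was at 0.52, and PAQR3, a Golgi anchor of SCAP, at -0.50. Of 14 tested genes of sterol uptake, efflux and storage, 8 rose (57.1%) and 3 fell (21.4%), with a median of 0.16. ABCG1 was not tested for its low counts. Of 13 genes of isoprenoid branches 3 rose (23.1%) and 5 fell (38.5%), with a median of -0.07.

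Single genes on these lists moved far more than any of the 36. ABCA1, the cholesterol efflux pump, had 603, 744 and 235 counts in WT and 27, 36 and 24 counts in KO, 22.0, 24.8 and 21.2 CPM against 1.10, 1.34 and 1.35 CPM. It fell by 4.18 ± 0.13 on the log2 scale (adjusted p = 4.13e-24), with neighbours at a median of 0.22. VLDLR, a lipoprotein receptor, was at 24.9, 21.3 and 22.7 CPM in WT and at 54.0, 53.0 and 62.8 CPM in KO, a log2 fold change of 1.29. DHDDS, which makes the dolichol chain from farnesyl diphosphate, rose from 33.7, 35.7 and 33.7 CPM to 166, 181 and 174 CPM. In each of these genes the groups were wide apart, and DHDDS, at a log2 fold change of 2.33, rose while FDPS, which makes its substrate, fell. The list of DHDDS did not rise as a whole: GGPS1 and FNTB rose by 0.12 and 0.58, and 5 genes fell, among them NUS1 and DOLK by 0.19 and 0.34.

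Of 26 tested genes of further elongation, activation and glycerolipid synthesis 11 rose (42.3%) and 9 fell (34.6%), with a median of 0.08. The shares over all tested genes were 31.9% higher and 32.0% lower. ACSL5 and PRKAA2 had at most 2 counts in any library and were not tested. Past both thresholds were 4 lower genes, ELOVL2, HACD1, ELOVL1 and ELOVL3, and 2 higher genes, ELOVL7 and LPIN1. Over all tested genes 7.73% passed both downward and 8.30% upward. Chain elongation genes went both ways: besides ELOVL7, ELOVL4 and HACD2 rose, with log2 fold changes of 0.57 and 0.27. HACD3, HSD17B12 and TECR were called lower, at -0.38, -0.14 and -0.12. ELOVL2, which elongates polyunsaturated chains, had 45, 64 and 15 counts in WT and 0, 0 and 1 counts in KO. HACD1, an elongation dehydratase, was at 57.0, 48.2 and 53.0 CPM in WT and at 7.08 to 7.50 CPM in KO, a log2 fold change of -2.84. ELOVL1, for very long saturated chains, fell from 155, 154 and 143 CPM to 53.3, 52.6 and 49.1 CPM, a log2 fold change of -1.55. The neighbours of HACD1 and ELOVL1 were low as well: their medians were -1.81 for HACD1 and -1.56 for ELOVL1, with 6 of 10 neighbours past both thresholds downward in each. The part of the neighbourhood in these changes was not tested. ELOVL3 was at -1.50, and is named as the remaining gene of the 4. LPIN1, a phosphatidate phosphatase, was at 142, 134 and 147 CPM in WT and at 297, 298 and 304 CPM in KO, and ELOVL7 had a log2 fold change of 1.36 at 1.42 to 4.48 CPM.

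Mitochondrial fatty acid oxidation moved mostly upward. Of its 18 tested genes 14 rose (77.8%), 2 fell and 2 were not called, with a median log2 fold change of 0.41, beside 31.9% higher over all genes. ECHS1, the enoyl-CoA hydratase, was at 88.7, 87.2 and 82.2 CPM in WT and at 201, 209 and 203 CPM in KO, a log2 fold change of 1.24 ± 0.05, with neighbours at a median of 0.69. ACAA2, HADHB and CPT2, which act in the same spiral or in carnitine import, rose by 0.86, 0.57 and 0.57. CPT1C and ETFA fell by 0.66 and 0.18, and ACADL had at most 1 count. The genes not called were CPT1A, also of carnitine import, at -0.07, and PPARA at 0.15.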

How the data were processed

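RNA of 3 WT and 3 CDK12 KO libraries was prepared with a directional kit and sequenced in single-end reads, and the authors deposited raw counts per gene made with FastQC, STAR on GRCh38 and HTSeq. Tool versions, strand setting, annotation release and the handling of reads with several matches are not given in the sources used here. Identifiers were matched to GENCODE 44, which holds 56321 of the genes listed (93.1%). Counts were tested in R 4.3.3 with edgeR 4.0.16: filterByExpr (minimum count 10, minimum total 15), TMM and the quasi-likelihood test, two-sided, on all 16198 genes kept, with Benjamini-Hochberg adjustment over all of them. The biological coefficient of variation was 4.35%. An exact permutation test of single genes cannot go below p = 0.1 with 3 libraries against 3. The test was checked on simulated counts. That check used changes larger than those of any of the 36 genes, so it does not cover changes of their size. Levels are CPM on TMM-scaled totals, per kb of merged exons (GENCODE) where genes are compared.

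The members and lists were chosen with earlier results of these data known, so no test of a list is given. Genes described with all libraries are the 5 largest changes in each direction among called members, SREBF1, SREBF2, SCAP, INSIG1, INSIG2, SQLE, ACACA, FASN and SCD, and from other lists at most 3 genes a direction past both thresholds. ELOVL3, FADS2, ACLY and the other genes given with values were chosen after their values were seen. Alternatives were voom/limma 3.58.1, DESeq2 1.42.0, RLE and upper-quartile normalization, no filter, a stricter filter, an adjusted p under 0.01 and leaving out each library. Python 3.11.15, numpy 2.4.6, pandas 2.3.3, scipy 1.17.1 and matplotlib 3.10.9 were used for the remaining steps. Some genes of the pathway are not reported here.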

Additional observations from a re-analysis of the deposited data

How the results depend on the processing

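The 36 genes kept 7 higher and 19 to 20 lower calls when each library was left out, with 0 past both thresholds in either direction, and the cholesterol enzymes kept 2 and 12. SCD5 is the gene whose call was lost, in 9 of 12 settings. Each of the other called genes kept direction and call in every setting run. Some median log2 fold changes moved by more than the SD of the group's median over the KO libraries alone. Under upper-quartile normalization they moved to -0.10 for the regulators, 0.10 for acetyl-CoA and chain synthesis and -0.059 for elongation and desaturation. With at least 10 counts in every library they moved to -0.11 for the regulators and -0.064 for elongation and desaturation. For chain synthesis the WT libraries spread wider than this SD, from -0.065 to 0.082 around the WT mean. Leaving out each library gave -0.15 to -0.12 for the regulators, 0.019 to 0.10 for chain synthesis and -0.12 to -0.068 for elongation and desaturation. At an adjusted p under 0.01, 3 isoprenoid genes were lower, from 5. Uncalled genes changed sign when a library was left out: ELOVL6 (-0.021 to 0.016), MVK (-0.14 to 0.0033), SREBF2 (-0.0069 to 0.026) and FADS2 (-0.092 to 0.022). The cause was not tested. Upper-quartile normalization moved the median of all genes to 0.03 and gave 5486 higher and 4833 lower calls, and DESeq2 gave 4545 and 4732. No paired analysis was possible because the labels number the libraries 1 to 6 and give no shared replicate number. WT replicate 3, with the smallest total, limits genes near the floor, and none of the 36 is near it.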
